A study of Mus musculus with 3 samples.

Results

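The 4 Hox clusters of the mouse genome were followed through 3 Capture Hi-C (CHi-C) libraries, named Sample 3, Sample 4 and Sample 5. A di-tag is a pair of sequenced ends from 1 ligation product, and is read as a record of 2 DNA fragments that lay near each other in the nucleus. Members were the di-tags with at least 1 end in 1 of 4 fixed windows in mm9 coordinates. These were HoxA (chr6:52100000-52220000, 120 kb), HoxB (chr11:96050000-96230000, 180 kb), HoxC (chr15:102750000-102870000, 120 kb) and HoxD (chr2:74490000-74620000, 130 kb). They numbered 49846 of the 26794867 di-tags left after removal of duplicates, with 19529 of 9376907 in Sample 3, 15145 of 8596799 in Sample 4 and 15172 of 8821161 in Sample 5. The windows were set for 38 named genes, 10 in HoxA, 10 in HoxB, 9 in HoxC and 9 in HoxD.

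All 3 libraries came from C57BL/6 mouse cells fixed with formaldehyde and cut with HindIII, and all 3 carry the cell type embryonic stem cells, which are cultured cells taken from the early embryo. The labels name no treatment, genotype or culture, so whether the libraries came from separate cultures is unknown. The source label of Sample 3 instead reads foetal liver cells, whereas the study's methods name embryonic stem cells for each of the libraries. A di-tag list holds no expression values, so neither label could be checked against marker genes. The main results are therefore given for each library by itself, and some also as means over the 3 libraries, Sample 3 included. Trans di-tags, those that join different chromosomes, made up 52.0% of all di-tags in Sample 3, 67.4% in Sample 4 and 71.6% in Sample 5. The paper calls a high ratio of trans to cis a mark of a poor library, because spurious ligation tends to join different chromosomes. A trans di-tag therefore need not record nearness in the nucleus. The lists with duplicates retained held 67919330, 49196723 and 45868446 di-tags.

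Hox genes encode homeodomain transcription factors that set position along the body axis. They sit in tight clusters, and the order of genes along the DNA matches the order in which they are used from head to tail. In embryonic stem cells the clusters are known as silent, CpG-rich domains covered by Polycomb proteins, repressors that modify histones and compact chromatin. By the RefSeq annotation, coordinates rise from Hoxa2 to Hoxa13 in HoxA, from Hoxb13 to Hoxb1 in HoxB, from Hoxc13 to Hoxc4 in HoxC and from Hoxd13 to Hoxd1 in HoxD. The annotation is on GRCm38.p6 and not on mm9, so it was used for gene order and promoter sequences, and no gene was placed on a bin.

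Promoter sequences are shown because gene promoters are the CpG-rich elements for which these loci are known. RefSeq promoters on GRCm38.p6 were matched for 22 of the 38 genes, with 24 starts in all. For each cluster the matched gene of lowest paralogue number from 4 upwards is printed, as the 250 bases before its start, 5′ to 3′ on the gene's strand, with each CpG in capitals. Hoxa5 lay at chr6:52204588-52204837 on the minus strand, and Hoxb4 at chr11:96318017-96318266, Hoxc4 at chr15:103034145-103034394 and Hoxd4 at chr2:74721728-74721977 on the plus strand.
Hoxa5: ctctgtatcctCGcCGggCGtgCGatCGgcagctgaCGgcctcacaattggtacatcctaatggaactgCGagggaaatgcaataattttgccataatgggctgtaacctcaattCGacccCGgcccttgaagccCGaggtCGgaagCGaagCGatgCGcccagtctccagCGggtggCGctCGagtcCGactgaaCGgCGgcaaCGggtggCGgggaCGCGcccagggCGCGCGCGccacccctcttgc
Hoxb4: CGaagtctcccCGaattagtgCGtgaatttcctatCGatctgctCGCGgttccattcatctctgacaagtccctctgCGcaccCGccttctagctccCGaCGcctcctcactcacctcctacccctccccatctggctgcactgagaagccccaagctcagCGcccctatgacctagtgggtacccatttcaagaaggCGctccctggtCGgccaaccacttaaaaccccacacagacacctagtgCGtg
Hoxc4: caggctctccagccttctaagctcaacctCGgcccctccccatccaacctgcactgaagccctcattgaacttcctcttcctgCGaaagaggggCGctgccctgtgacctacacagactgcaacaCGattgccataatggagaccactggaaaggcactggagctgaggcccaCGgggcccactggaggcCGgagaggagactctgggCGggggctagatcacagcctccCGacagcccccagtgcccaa
Hoxd4: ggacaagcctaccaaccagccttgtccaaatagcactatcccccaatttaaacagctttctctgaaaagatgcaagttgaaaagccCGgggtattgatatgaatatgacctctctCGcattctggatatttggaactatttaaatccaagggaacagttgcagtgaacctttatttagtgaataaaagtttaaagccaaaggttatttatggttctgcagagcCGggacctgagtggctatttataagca
The Hoxa5 stretch held 28 CpGs, a number reached by 7.61% of all 32851 RefSeq mouse promoters, and the Hoxb4 stretch held 14, reached by 29.4%. Hoxc4 held 8 and Hoxd4 held 3, reached by 43.0% and 71.0%. Over the 24 Hox starts the number ran from 2 to 35 with a median of 12.5, beside a median of 6 over all promoters. The HindIII site AAGCTT, which reads the same on both strands, occurred in 2 of the 24 (8.33%), at Hoxb1 and at 1 of the 2 Hoxd11 starts, beside 6.22% of all promoters.

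The windows were densely covered in every library. The median 10 kb bin held 438, 284 and 359 di-tag ends in HoxA in Samples 3, 4 and 5. It held 385.5, 306.5 and 295 in HoxB, 316, 310.5 and 316.5 in HoxC, and 340, 310 and 324 in HoxD. The genome-wide medians were 44, 48 and 51. All 12 bins of HoxA lay above the genome median in each library, whereas 3 of the 18 bins of HoxB, and 1 bin each of HoxC and HoxD, did not.

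Contacts inside the clusters were far more frequent in Sample 5 than in the other libraries. An observed number of di-tags with both ends in a window, in 10 kb bins whose starts lay at least 20 kb apart, was set against the number expected from the trans coverage of the bins and their distance. In HoxA 149 were observed against 157.4 expected in Sample 3, 128 against 128.2 in Sample 4 and 483 against 70.2 in Sample 5. The ratios of observed over expected were 0.947 (95% exact Poisson interval 0.801 to 1.11), 0.998 (0.833 to 1.19) and 6.88 (6.28 to 7.52). The intervals of Samples 3 and 4 included 1, and that of Sample 5 lay far above it. The intervals cover counting error only.

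HoxB held 163, 227 and 485 such di-tags in Samples 3, 4 and 5, for ratios of 1.00 (0.854 to 1.17), 1.06 (0.924 to 1.20) and 3.71 (3.38 to 4.05). HoxC held 68, 144 and 515, for ratios of 0.447 (0.347 to 0.567), 1.07 (0.904 to 1.26) and 6.16 (5.64 to 6.71). HoxD held 98, 116 and 270, for ratios of 0.846 (0.687 to 1.03), 1.10 (0.911 to 1.32) and 2.93 (2.59 to 3.30). In each cluster Sample 5 was the highest of the libraries and no interval of it overlapped another library's. Of the 8 values in Samples 3 and 4, HoxC in Sample 3 alone had an interval below 1. That count depended on the processing. Without the calibration by coverage classes 7 of the 8 intervals lay below 1, with ratios from 0.309 to 0.853, and without the 0.1% most covered bins 5 did, with ratios from 0.314 to 0.952.

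**Figure D1:**
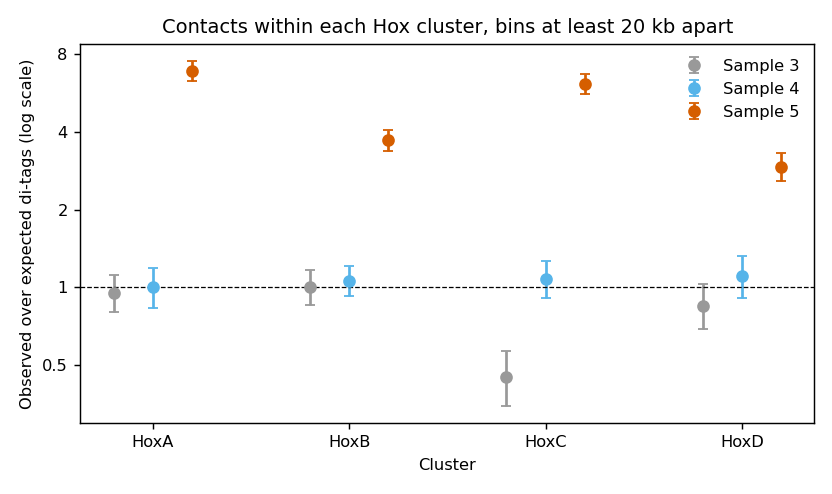
Observed over expected di-tags with both ends in 1 Hox cluster, in bins at least 20 kb apart (log scale), for each cluster and library, with 95% exact Poisson intervals and a dashed line at 1. Sample 5 lies between 2.93 and 6.88, whereas Samples 3 and 4 lie between 0.447 and 1.10.

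Other windows with the same trans coverage did not show such ratios. Among 515 windows of the same length as HoxA and within 20% of its coverage in Sample 5, the ratio had a median of 1.11 and a highest value of 2.18. For HoxB, HoxC and HoxD the highest of 271, 161 and 336 matched windows reached 1.83, 2.18 and 2.31. In Sample 4 the clusters lay inside the range of their matched windows, with 107 of 171 above HoxA, 47 of 88 above HoxB, 40 of 74 above HoxC and 158 of 304 above HoxD. In Sample 3, HoxC lay near the bottom of its range, with 80 of 82 matched windows above it. The other clusters also lay in the lower part of theirs, with 29 of 41 above HoxA, 149 of 219 above HoxB and 233 of 274 above HoxD.

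The difference between libraries was tested for every window by an exact two-sided binomial test on its di-tags, with Benjamini-Hochberg adjustment over all windows with at least 10 di-tags. Such a test compares 2 libraries and not 2 conditions. Of 12734 windows, 6 were higher in Sample 5 than in Sample 4 (0.0471%) and 0 were lower (0%) at an adjusted p under 0.05. All 4 Hox clusters were among the 6. HoxA was 6.85-fold higher (log2 ratio 2.78, adjusted p = 1.29e-103, exact binomial test) and HoxC 5.71-fold higher (2.51, adjusted p = 3.81e-92, exact binomial test). HoxB was 3.50-fold higher (1.81, adjusted p = 4.78e-56, exact binomial test) and HoxD 2.65-fold higher (1.40, adjusted p = 1.46e-16, exact binomial test). The other 2 windows were chr9:58200001-58320000, with 54 di-tags against 19, and chr19:25680001-25800000, with 63 against 24.

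Among the 61 windows, outside the clusters, with an expected total at least as large as the lowest of the clusters, the log2 ratio of Sample 5 over Sample 4 ran from -0.38 to 0.47, and each cluster lay above them. Among all 12734 windows, most of them with a smaller expected total, 8 had a larger ratio than HoxA, 84 than HoxB, 11 than HoxC and 246 than HoxD, other clusters included. Against Sample 3, Sample 5 was higher in 63 of 11614 windows (0.542%) and lower in 27 (0.232%). The Hox clusters were all among the higher ones, with log2 ratios of 2.85 for HoxA, 1.88 for HoxB, 3.77 for HoxC and 1.79 for HoxD. Here the 55 other windows of at least the expected total of the lowest cluster ran from -0.90 to 0.98, all below the clusters, and among all windows 13, 114, 1 and 149 had a larger ratio than HoxA, HoxB, HoxC and HoxD. Between Samples 4 and 3, 71 of 11824 windows were higher in Sample 4 (0.6%) and 54 lower (0.457%), and of the clusters HoxC alone was called (log2 ratio 1.26, adjusted p = 2.49e-06, exact binomial test). The other log2 ratios were 0.08 for HoxA, 0.08 for HoxB and 0.38 for HoxD. The 61 other windows chosen in the same way for this comparison ran from -1.01 to 1.18, close to the value of HoxC.

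**Figure D2:**
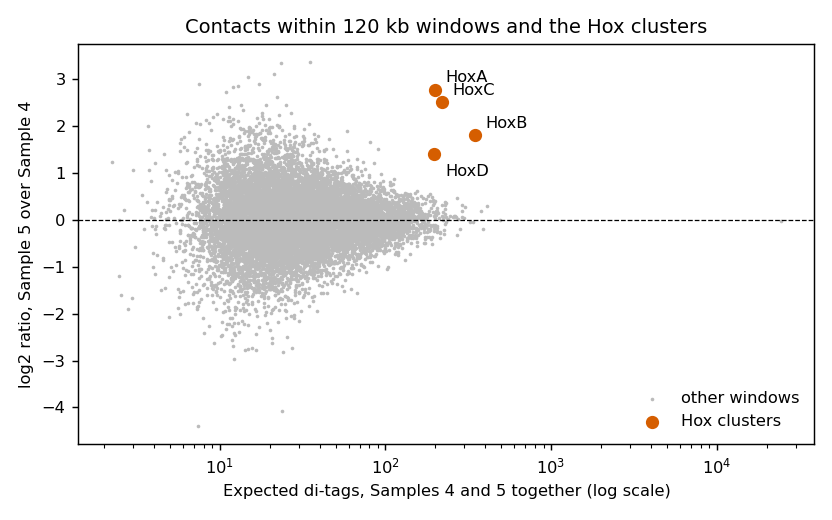
Log2 ratio of observed over expected contacts within windows, Sample 5 over Sample 4, against the expected number of di-tags in both libraries (log scale), for 12734 windows including the 4 Hox clusters (orange). The clusters lie at 1.40 to 2.78, above all other windows of similar or larger expected number. The point at the far right is 1 very densely covered window.

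The size of the ratios in Sample 5 depended on the measure of coverage. With all di-tag ends in place of trans ends as coverage, the ratios in Sample 5 were 3.06 for HoxA, 2.27 for HoxB, 2.92 for HoxC and 2.16 for HoxD, and those in Samples 3 and 4 lay from 0.441 to 0.934, with 6 of the 8 intervals below 1. With all ends the log2 ratio of Sample 5 over Sample 4 was 1.89 for HoxA and 1.76 for HoxC, and with separations from 10 kb it was 2.08 and 1.79. Without coverage classes the ratios of observed over expected in Sample 5 were 5.81, 2.72, 3.74 and 2.62, and the log2 ratio over Sample 4 was 2.82 for HoxA and 2.56 for HoxC. Over the 3 libraries as replicates, the mean ratio of HoxA was 2.94 ± 3.41 (SD, n = 3), of HoxB 1.92 ± 1.55, of HoxC 2.56 ± 3.13 and of HoxD 1.63 ± 1.14. The SD exceeded the mean for HoxA and HoxC and lay below it for HoxB and HoxD, and an exact sign-flip permutation test over 3 libraries cannot give a p below 0.25. Without Sample 3, the means were 3.94, 2.38, 3.61 and 2.02, and without Sample 5 they were 0.973, 1.03, 0.760 and 0.974. Sample 5 also had the largest share of trans di-tags of the libraries, and its part in the result was not tested.

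In Sample 5 the ratio was highest at intermediate separations in each cluster. In HoxA it was 4.76 (4.10 to 5.49) for bins 20 to 30 kb apart, 9.79 (8.58 to 11.1) at 40 to 70 kb and 8.94 (6.84 to 11.5) at 80 kb and more. HoxB gave 2.88, 5.06 and 3.32, HoxC 4.99, 8.13 and 6.31, and HoxD 2.62, 3.50 and 2.61 over the same steps. The intervals of the first 2 steps overlapped in HoxD and not in the other clusters. Those of the last 2 steps overlapped in HoxA, HoxC and HoxD, and not in HoxB. In Sample 4 the ratios over these steps stayed between 0.543 and 1.20 in all clusters. In Sample 3 they ran from 0.425 in HoxC to 1.28 in HoxB, both at 20 to 30 kb.

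The clusters differed in where these contacts fell in Sample 5. Each window was divided at its middle bin into a lower and a higher part. In Sample 5 the ratio between the parts of HoxA (9.81, 8.76 to 11.0) exceeded that inside its lower part, the Hoxa2 side (4.02, 3.24 to 4.92), and that inside its higher part, the Hoxa13 side (4.91, 3.84 to 6.19). HoxC showed the same order, with 7.59 (6.77 to 8.47) between the parts, 4.38 in the lower part on the Hoxc13 side and 5.06 in the higher part on the Hoxc4 side. HoxB was uneven, with 5.33 (4.73 to 5.99) in the higher part on the Hoxb1 side and 1.98 (1.41 to 2.71) in the lower part on the Hoxb13 side. In HoxD the lower part on the Hoxd13 side gave 3.31 (2.66 to 4.08) and the higher part on the Hoxd1 side 2.16 (1.55 to 2.95), with overlapping intervals. Between the parts HoxB gave 2.80 and HoxD 3.01, so neither exceeded both of its parts. Bins in different parts also lie farther apart on average, and the ratio changed with separation. The split by part was not separated from that change.

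**Figure D3:**
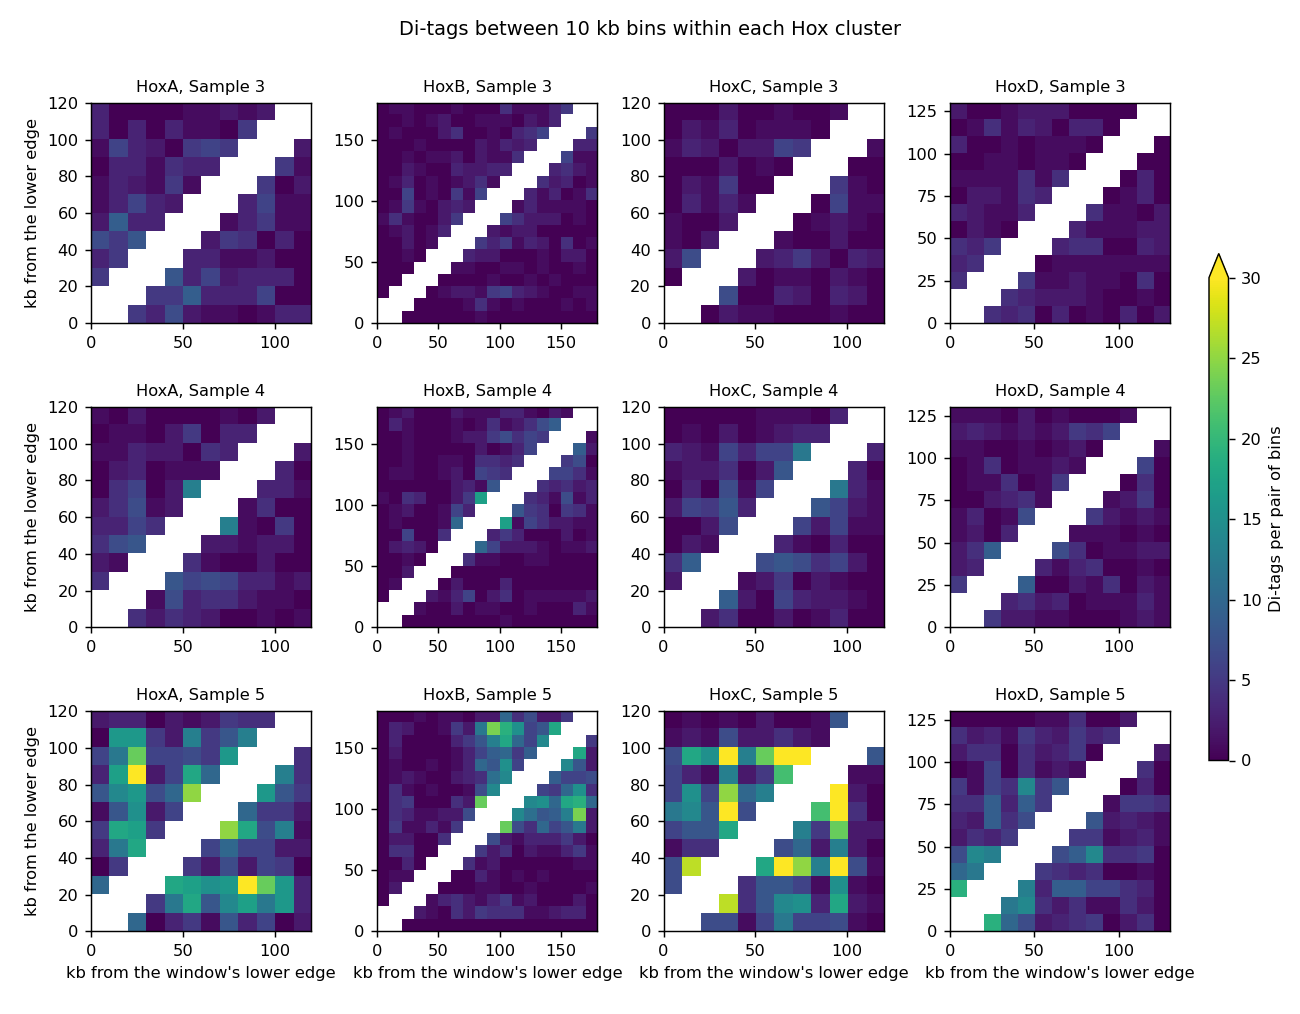
Di-tags between 10 kb bins of each Hox cluster (colour, 0 to 30 and above) in the 3 libraries, with both axes in kb from the lower edge of the window and bins closer than 20 kb left blank. In Sample 5 single bin pairs reach 37 in HoxA and 44 in HoxC. HoxB holds more di-tags inside its higher than inside its lower part in each library. These are 59 against 24, 103 against 33 and 284 against 39 in Samples 3, 4 and 5. Fewer are expected in the lower part, 19.7 against 53.2 in Sample 5. Over expected, the higher part of HoxB gave 0.958 and the lower 1.22 in Sample 3, and 1.20 and 1.11 in Sample 4, with overlapping intervals.

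Single pairs of 10 kb bins were tested against their expected number by a Poisson upper tail, with adjustment over all cis pairs 20 kb to 2 Mb apart in the genome. In Sample 5, 649 of 44571525 pairs were called at an adjusted p under 0.05 (0.00146%). Inside the clusters 49 of 312 pairs were called, 17 of 55 in HoxA, 13 of 136 in HoxB, 15 of 55 in HoxC and 4 of 66 in HoxD. None of the 312 was called in Sample 3 (background 0.00256%) or Sample 4 (0.00158%), where 14 and 22 had an unadjusted p under 0.05, beside 145 in Sample 5. These backgrounds are for the adjusted threshold, and none is given for the unadjusted one. They take in all pairs of bins and are not matched to the dense coverage of the clusters. The 49 pairs held a median of 16 di-tags in Sample 5, 4 in Sample 4 and 3 in Sample 3. They were chosen in Sample 5, so these medians describe them and test nothing.

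The strongest pair in HoxA joined chr6:52120001-52130000 and chr6:52180001-52190000, 60 kb apart, with 37 di-tags in Sample 5 against 0.759 expected and 3 each in Samples 3 and 4. The former bin took part in 7 of the 17 called pairs of HoxA. In HoxC the strongest pair joined chr15:102780001-102790000 and chr15:102840001-102850000, with 44 di-tags in Sample 5, 6 in Sample 4 and 0 in Sample 3. The latter bin was in 7 of the 15 called pairs.

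In HoxB the bins chr11:96140001-96150000 and chr11:96210001-96220000 shared 24 di-tags in Sample 5, 4 in Sample 4 and 1 in Sample 3. The bin chr11:96150001-96160000 was in 6 of the 13 called pairs of HoxB, and all 13 lay between 80 kb from the lower edge and the higher edge. The lower part of HoxB also had fewer expected di-tags in Sample 5, 19.7 against 53.2 in the higher part. In HoxD the pair chr2:74530001-74540000 and chr2:74570001-74580000 held 14 in Sample 5, 0 in Sample 4 and 4 in Sample 3. HoxD had the fewest calls, and its ratio of contacts inside the window in Sample 5 was the lowest of the 4 clusters.

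Of each cluster's di-tags, the share with both ends inside the window was lowest in Sample 3 and highest in Sample 5. For HoxA it was, in Samples 3, 4 and 5, 7.65% (exact Clopper-Pearson 95% interval 6.94 to 8.40), 14.7% (13.5 to 16.0) and 27.6% (26.1 to 29.2). It was 5.82%, 11.1% and 18.8% for HoxB, 4.11%, 10.9% and 21.5% for HoxC, and 5.37%, 11.0% and 16.4% for HoxD. These shares include ends in the same or adjoining bins. The share on the same chromosome but beyond 2 Mb set Sample 3 apart. It was 24.7% to 35.7% over the clusters in Sample 3, 6.94% to 11.5% in Sample 4 and 5.86% to 10.9% in Sample 5. Trans di-tags took 44.1% to 52.7%, 60.7% to 65.1% and 52.0% to 59.4%. Over all di-tags of the libraries they took 52.0%, 67.4% and 71.6%, so the trans share was lowest in Sample 3 there too. Shares within a window and beyond 2 Mb are not given for the rest of the genome. The place of Sample 3 is therefore not shown to be particular to the clusters. Over the 3 libraries the share within HoxA was 16.7% ± 10.1 (SD, n = 3), with 21.2% without Sample 3 and 11.2% without Sample 5.

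**Figure D4:**
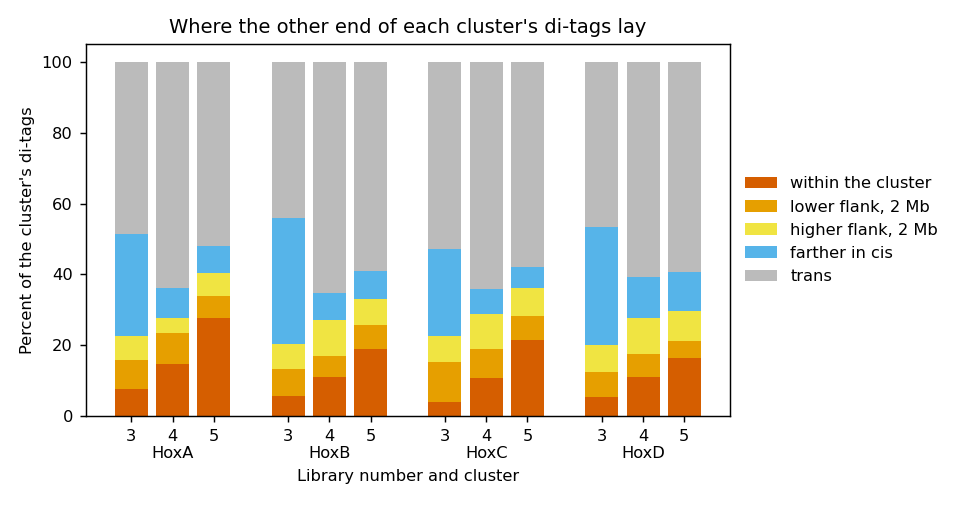
Percent of each cluster's di-tags by where the other end lay, for libraries 3, 4 and 5. The part within the cluster (bottom) is highest in library 5, at 16.4% to 27.6%, and the part farther in cis is highest in library 3, at 24.7% to 35.7%.

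The higher and lower flanks within 2 Mb differed in their ratio of observed over expected di-tags in a common direction for HoxC and HoxD. The flank at higher coordinates lies beyond Hoxa13, Hoxb1, Hoxc4 and Hoxd1, and for HoxC it ended at the chromosome's end after 0.62 Mb. For HoxD the higher flank was at 1.25 (1.12 to 1.40), 2.12 (1.90 to 2.36) and 2.32 (2.06 to 2.60) times the expected number in Samples 3, 4 and 5, and the lower flank at 1.10, 1.30 and 1.23. For HoxC the higher flank was at 1.04, 1.84 and 2.14, and the lower at 0.850, 1.03 and 1.23. Relative to the expected number, both clusters had more contacts with the higher side in every library. In Sample 3 the intervals of the lower and higher sides overlapped, at 0.981 to 1.24 and 1.12 to 1.40 for HoxD and 0.776 to 0.929 and 0.926 to 1.16 for HoxC. The same comparison of sides is not given for other windows, so it is not shown to be particular to the clusters. The log2 ratio of higher over lower was 0.60 ± 0.38 (SD, n = 3) for HoxD and 0.64 ± 0.31 for HoxC (exact sign-flip permutation test, p = 0.25 for each, the smallest it allows). Without Sample 3 it was 0.81 and 0.82. In raw di-tags HoxC had no common direction, with 481, 306 and 255 in the lower flank and 323, 370 and 309 in the shorter higher flank in Samples 3, 4 and 5.

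For HoxB the higher flank was at 0.925, 1.77 and 1.91, and the lower at 0.946, 0.920 and 1.50. For HoxA the higher flank was at 1.11, 0.943 and 2.19, and the lower at 1.15, 1.45 and 1.74. Neither had a common direction, with log2 ratios of higher over lower of -0.03, 0.95 and 0.35 for HoxB and -0.04, -0.62 and 0.33 for HoxA. Tested over 40726 flanks, 10 were higher in Sample 5 than in Sample 4 (0.0246%) and 1 was lower (0.00246%). The higher flank of HoxA (log2 ratio 1.21, adjusted p = 6.62e-11, exact binomial test) and the lower flank of HoxB (0.70, adjusted p = 5.03e-05, exact binomial test) were among the 10. The 6 other Hox flanks had log2 ratios from -0.08 to 0.26 and were not called. Against Sample 3, 5.29% of all 39996 flanks were higher in Sample 5 and 4.12% lower, and 7 of the 8 Hox flanks were called higher, all but the lower flank of HoxD. In Sample 4 against Sample 3, 6.49% of 40132 flanks were higher and 4.96% lower. There the higher flanks of HoxB, HoxC and HoxD (log2 ratios 0.94, 0.83 and 0.76) and the lower flank of HoxA (0.34) were called higher. The median log2 ratio over all flanks was 0.14 and 0.13 in these comparisons, and 0.01 between Samples 5 and 4.

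**Figure D5:**
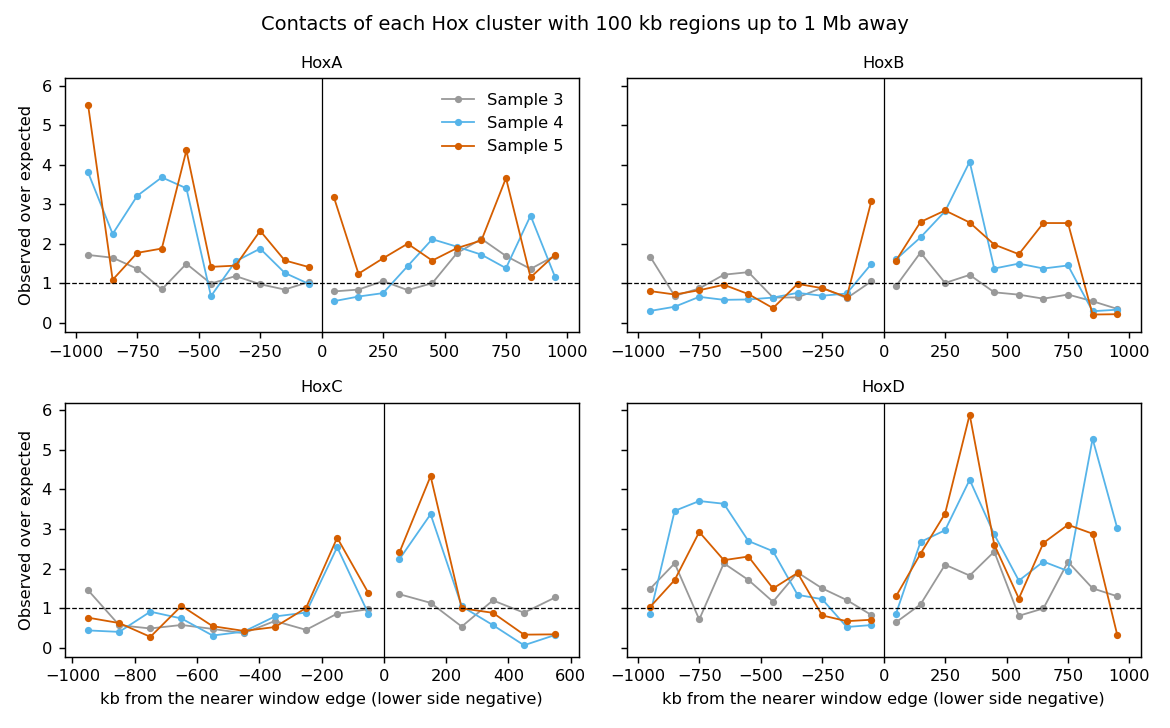
Observed over expected contacts of each Hox cluster with 100 kb regions, against the distance of the region's centre from the nearer window edge in kb (lower side negative), for the 3 libraries with a dashed line at 1. In HoxC the region 100 to 200 kb beyond the higher edge stands at 3.37 in Sample 4 and 4.34 in Sample 5, beside 1.13 in Sample 3.

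Regions of 100 kb were ranked in each flank by the lowest ratio among the libraries, so the ratios describe them and test nothing. No such ratios are given for other windows. On the sides not named below, the first regions gave 0.832, 1.44 and 2.01 for HoxA in Samples 3, 4 and 5. They gave 1.05, 1.49 and 3.08 for HoxB, 0.971, 0.861 and 1.39 for HoxC, and 1.71, 2.70 and 2.30 for HoxD. For HoxC the first on the higher side, chr15:102870001-102970000, adjoined the window and held 96, 152 and 121 di-tags in Samples 3, 4 and 5, for ratios of 1.35, 2.24 and 2.41. The second was chr15:102970001-103070000, beyond Hoxc4 on the side of Smug1, a DNA repair enzyme, and it held 90, 163 and 143, for ratios of 1.13, 3.37 and 4.34. For HoxD the first on the higher side, on the side of Mtx2 and Hoxd1, was chr2:75020001-75120000 with 22, 18 and 13 (2.43, 2.86 and 2.61), and the second was chr2:74820001-74920000 with 55, 56 and 47 (2.10, 2.97 and 3.39). For HoxA the first on the lower side, beyond Hoxa2, was chr6:51100001-51200000 with 19, 13 and 12 (1.72, 3.81 and 5.52), and the second was chr6:51500001-51600000 with 31, 29 and 25 (1.50, 3.41 and 4.37). For HoxB the first on the higher side, chr11:96330001-96430000 on the side of Skap1 beyond Hoxb1, held 42, 53 and 39, for ratios of 1.78, 2.16 and 2.55.

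Single 10 kb pairs that joined a cluster to its flank passed the threshold in 0 of 18515 tests in Sample 3, 5 of 18490 in Sample 4 (0.0270%) and 13 of 18485 in Sample 5 (0.0703%). The genome-wide shares were 0.00256%, 0.00158% and 0.00146%, and 436, 538 and 577 flank pairs had an unadjusted p under 0.05 by the Poisson test. For the unadjusted threshold no genome-wide share is given here. The genome-wide shares take in all pairs of bins, whereas the clusters are densely covered. The excess of called flank pairs was therefore not separated from coverage. In HoxC 2 pairs were called in both Samples 4 and 5, and both ended in chr15:103000001-103010000, beyond the higher edge. From chr15:102840001-102850000 to this bin there were 7, 13 and 11 di-tags in Samples 3, 4 and 5, and from chr15:102820001-102830000 there were 1, 9 and 10. In Sample 5 alone, 3 pairs joined HoxA to chr6:52260001-52270000, on the side of Evx1, a homeobox gene next to Hoxa13. They held 7 to 10 di-tags, and 0 to 2 in Samples 3 and 4. Another 3 joined HoxB to chr11:96030001-96040000, beyond Hoxb13, with 6 to 13 in Sample 5 and 0 to 4 in the others.

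Trans di-tags between the clusters were seen in Sample 5 and in neither of the others. Summed over the 6 pairs of clusters, 13 di-tags were observed in Sample 5 against 1.65 expected, a ratio of 7.88 (95% exact Poisson interval 4.20 to 13.5). In Sample 3 there were 0 against 2.28 expected (0 to 1.62), and in Sample 4 there were 0 against 1.95 (0 to 1.89). On the one-sided limit of 3 di-tags that a count of 0 allows, the ratios are at most 1.32 and 1.54. The 13 comprised 5 between HoxB and HoxC, 3 between HoxA and HoxB, 3 between HoxA and HoxC, 2 between HoxB and HoxD, and 0 between HoxA and HoxD and between HoxC and HoxD. No pair was called in any library after adjustment over all trans pairs of windows, where the background over the genome was 0.000103% for Sample 3, 5.76e-05% for Sample 4 and 3.13e-05% for Sample 5. The 4 pairs with a di-tag in Sample 5 had an unadjusted Poisson p under 0.05, for which 2 di-tags against 0.311 expected were enough in HoxB with HoxD. In Samples 3 and 4 every pair held 0 di-tags, so none could pass. A genome-wide share at the unadjusted threshold is not given here.

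The pair with the most di-tags, HoxB with HoxC, had 5 against 0.329 expected, and none of the 6322 pairs of windows matched to it in coverage had more than 4. For HoxA with HoxB, 0.202% of the matched pairs had 3 or more, for HoxA with HoxC 0.142%, and for HoxB with HoxD 2.38% had 2 or more. The 13 di-tags occurred in 1 to 28 copies in the list with duplicates retained, with a median of 5. The di-tag in the most copies joined chr11:96152255 in HoxB to chr15:102782462 in HoxC. With all di-tag ends as coverage the sum in Sample 5 was 4.92 times the expected number. Over the 3 libraries the ratio was 2.63 ± 4.55 (SD, n = 3), with 3.94 without Sample 3 and 0 without Sample 5.

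Outside the clusters, each cluster was tested with every covered window of the other chromosomes. Of these pairs, 0 of 80426 were called in Sample 3, 0 of 80423 in Sample 4 and 1 of 80474 in Sample 5 (0.00124%). An unadjusted p under 0.05 by the Poisson test was found for 969, 785 and 760, with no genome-wide share at that threshold given here. After adjustment, the genome-wide share called in Sample 5, not matched to the coverage of the clusters, was 67 of 213824743 pairs (3.13e-05%). With a negative binomial test, whose dispersion was estimated over all trans pairs of windows, 37 were called. HoxB and chr10:79920001-80040000 shared 8 di-tags in Sample 5 against 0.223 expected (adjusted p = 0.00166, exact Poisson test adjusted over all trans pairs), and 0 in Samples 3 and 4. Its adjusted p by the negative binomial test was 0.0156. The Hox clusters had 19521, 15142 and 15160 distinct di-tags in Samples 3, 4 and 5. No di-tag among them had the same positions in Samples 3 and 5, 1 was shared by Samples 3 and 4 and 7 by Samples 4 and 5. The share over all di-tags is not given here, so these numbers are not shown to be particular to the clusters.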

How the data were processed

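The deposited files of each CHi-C library were lists of di-tags made by the authors with HiCUP, which maps both ends, filters invalid pairs and writes lists with duplicates removed and with duplicates retained. Bowtie 1.1.0 and mm9 are named in the submitters' processing notes. Each line of the deposited lists gives chromosome, position and strand of both ends, and the only measure is the number of lines, so a value here is a count of di-tags. Lists with duplicates removed were used. Positions on the 19 autosomes and X were put into 10 kb bins. Expected trans numbers were products of the trans coverages of 2 bins, calibrated in 10 coverage classes, and expected cis numbers were the same by distance, with 4 classes. Windows of 120 kb tiled the genome with the Hox windows in place, 21981 in all. The Poisson tests, the exact binomial tests and Benjamini-Hochberg adjustment were run in Python 3.11.15 with numpy 2.4.6, scipy 1.17.1 and pandas 2.3.3, and 0.5 was added to numbers in log2 ratios of libraries. The scripts were tested on simulated data with planted contacts. In these data cis numbers were Poisson draws and trans ends were shuffled, so no spread beyond counting error was included. The planted trans pairs were given more di-tags than any pair of clusters held. The windows, genes and lists were chosen with earlier results of these data known, and the tests of libraries against each other, the splits by part of a cluster and by separation and the comparison by expected number were added after the values had been seen. The regions named in the flanks are the 2 of each side with the highest lowest ratio among those with at least 10 di-tags in each library, and the sides described were picked for the text. Captured baits were not used here. Intervals cover counting error only, since each comes from 1 library and holds no spread between libraries. PCR copies are not independent molecules, and duplicates were left out of the intervals. The libraries enter as 3 replicates of 1 group. The sign-flip test over them asks only whether their log2 ratios share a direction, and its smallest p is 0.25.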

Additional observations from a re-analysis of the deposited data

How the results depend on the processing

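The log2 ratios of Sample 5 over Sample 4 and over Sample 3 remained positive and called for all 4 clusters under 6 alternatives added after seeing the data (no coverage classes, all ends as coverage, without the most covered bins, duplicates retained, and separations of at least 10 or 40 kb). The size shifted by over 1.5 times for HoxA and HoxC alone, with all ends as coverage and from 10 kb. Over Sample 4 the log2 ratio of HoxA was 1.89 and 2.08 (2.78 as reported) and that of HoxC 1.76 and 1.79 (2.51), and over Sample 3 they were 1.96 and 2.00 (2.85) and 2.72 and 2.76 (3.77). Without the most covered bins, HoxC fell from 68 to 20 di-tags in Sample 3 and from 144 to 97 in Sample 4, and stayed at 515 in Sample 5. That setting thus compared different bins of HoxC between libraries and cannot test its stability. With duplicates retained, the HoxA and HoxD log2 ratios of Sample 4 over Sample 3 passed the threshold, at 0.14 and 0.69. The pairs of 10 kb bins called with an end in a cluster were then 1102, 863 and 850 in Samples 3, 4 and 5. Calls rose over the whole genome too, to 438215, 291369 and 247468 pairs of bins, from 1124, 701 and 649. PCR copies are then counted as separate di-tags, and 4 trans pairs of clusters were called in Sample 5, against 0. Genome-wide, 2205030 trans pairs of windows were called in Sample 5 in that setting, against 67. At an adjusted p under 0.001, 2 pairs of bins were called in Sample 4 in place of 5. The log2 ratio of higher over lower flank of HoxB was 0.95 without the first 100 kb, against 0.42, and that of HoxC was -0.0078 with raw di-tag counts, against 0.64. The higher flank of HoxC is shorter than the lower. Of 77 recomputed means over the 3 libraries, 9 moved by over 1.5 times, the raw HoxC flank ratio among them. With all ends as coverage the mean ratio inside HoxA was 1.55 (2.94 as reported), inside HoxC 1.41 (2.56) and in trans 1.64 (2.63), and without coverage classes that inside HoxC was 1.56. Without di-tags under 10 kb apart, the shares within HoxA, HoxB, HoxC and HoxD were 9.37%, 7.72%, 8.00% and 6.20% (16.7%, 11.9%, 12.1% and 10.9%). The SD exceeds the mean of several of these results, so the spread between libraries is no test of such moves. Without coverage classes single ratios moved by over 1.5 times too, to 0.558 and 0.665 for HoxA and HoxB in Sample 3, 0.685 and 0.632 for HoxB and HoxC in Sample 4 and 3.74 for HoxC in Sample 5. Leaving out 1 of 3 libraries cannot move a mean by more than their SD and so tests no stability, and without Sample 5 the mean ratios inside the clusters lay from 0.760 to 1.03. Counts of windows over the whole genome depended on the setting. With duplicates retained, 3049 windows were higher and 3023 lower in Sample 5 than in Sample 4 (6 and 0 as reported), 3395 and 3366 than in Sample 3 (63 and 27), and 3498 and 3412 in Sample 4 than in Sample 3 (71 and 54). Windows lower in Sample 5 than in Sample 4 numbered 2 without classes and 1 without the most covered bins or from 10 kb. At separations from 10 and 40 kb, 106 and 14 were higher and 70 and 11 lower in Sample 5 than in Sample 3, and with all ends 7 were lower. In Sample 4 against Sample 3 there were 39 higher without classes, 45 higher and 21 lower with all ends, and 27 higher and 30 lower from 40 kb. No paired analysis was possible because the libraries form 1 group. Depth limits the trans result: with 1.65 to 2.28 di-tags expected over all 6 pairs, single pairs carry 0 to 5.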
